A study of Mus musculus with 2 samples.

Results

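The family of miR-15, miR-16, miR-195 and miR-497 is a group of microRNA genes in 3 clusters whose 5p arms share the seed AGCAGCA. Its members were chosen by gene symbol, not by level: Mir15a, Mir16-1, Mir15b, Mir16-2, Mir497 and Mir195a, 6 of the 2202 microRNA genes in the count tables. The tissue was gastrocnemius, a calf muscle, taken at 14 days of age from males of the cross B6CASTF1/J. That cross is the first generation from a C57BL/6 and a CAST/EiJ parent, and no treatment or engineered allele is given. The libraries held small RNA in a size range under 30 nt and formed 1 group of 2 biological replicates with 1 library each, so no condition was set against another. One donor identifier stands on both labels, which mention several males. Whether a replicate was pooled from them is not said, so every spread given here is the spread between these 2 samples and may be partly technical. Of 9 skeletal muscle marker genes 9 had counts, and together they held 6.95% of assigned counts in replicate 1 and 6.92% in replicate 2, nearly all of it from Mir206 at 68288 and 67909 CPM. Reads that match several loci were assigned to no gene, so marker microRNAs with copies at several loci can be undercounted. In whole muscle, fewer cells of a type and less RNA per cell cannot be told apart.

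A microRNA is cut from a hairpin as a duplex of a 5p and a 3p arm, and the loaded arm finds messenger RNAs mainly through its seed, bases 2 to 8. Members that share a seed can bind the same target sites. The family is known for restraining the cell cycle, with targets in human or mouse cells that include cyclins D and E, Cdc25a, Chek1 and the survival gene Bcl2. In the mouse heart, miR-195 is known to rise after birth and to promote mitotic arrest of cardiomyocytes, and in mouse muscle stem cells miR-195 and miR-497 are known to promote quiescence.

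The mature 5p sequences are shown because the seed defines the family and the letters after it decide whether a read can be placed at 1 gene. They are from RefSeq (GRCm38.p6, the assembly also called mm10), written 5′ to 3′ with the seed in capitals.
miR-15a-5p: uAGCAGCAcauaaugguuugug
miR-15b-5p: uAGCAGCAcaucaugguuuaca
miR-16-5p: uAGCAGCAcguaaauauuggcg
miR-195a-5p: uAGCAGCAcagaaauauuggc
miR-497a-5p: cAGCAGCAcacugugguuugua
The 6 loci gave 5 distinct sequences of 21 or 22 bases, since Mir16-1 and Mir16-2 encode the same miR-16-5p. Over the first 21 bases, the 10 pairs of distinct sequences agreed at 11 to 19 positions. The closest pair was miR-16-5p and miR-195a-5p with 19 identical bases, followed by miR-15a-5p and miR-15b-5p with 18 and by miR-15a-5p and miR-497a-5p with 17. The pair least alike was miR-16-5p and miR-497a-5p with 11, of which 4 lay among the 13 bases after the seed. Each cluster thus pairs a member nearer to miR-15a with a member nearer to miR-16 in sequence.

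The members lie in 3 clusters of 2 genes. Mir15a (ENSMUSG00000093007.1, chromosome 14, 61632027 to 61632110) and Mir16-1 (ENSMUSG00000092995.1, chromosome 14, 61631880 to 61631972) are on the minus strand of mm10, 54 bases apart, in an intron of Dleu2. Dleu2 is a long non-coding RNA, and in humans its locus is known for its deletion in chronic lymphocytic leukaemia. Mir15b (ENSMUSG00000065580.2, chromosome 3, 69009772 to 69009835) and Mir16-2 (ENSMUSG00000065606.1, chromosome 3, 69009902 to 69009996) are on the plus strand, 66 bases apart, in an intron of Smc4. Smc4 encodes a core subunit of condensin, the complex that compacts chromosomes for mitosis. Mir497 (ENSMUSG00000105220.1, chromosome 11, 70234717 to 70234800) and Mir195a (ENSMUSG00000065411.2, chromosome 11, 70235042 to 70235135) are on the plus strand, 241 bases apart, and lie in no host gene on their own strand in GENCODE vM21. The nearest protein-coding genes in that annotation, 0610010K14Rik and Gm21988, end 71 bases away and are on the opposite strand.

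**Figure D1:**
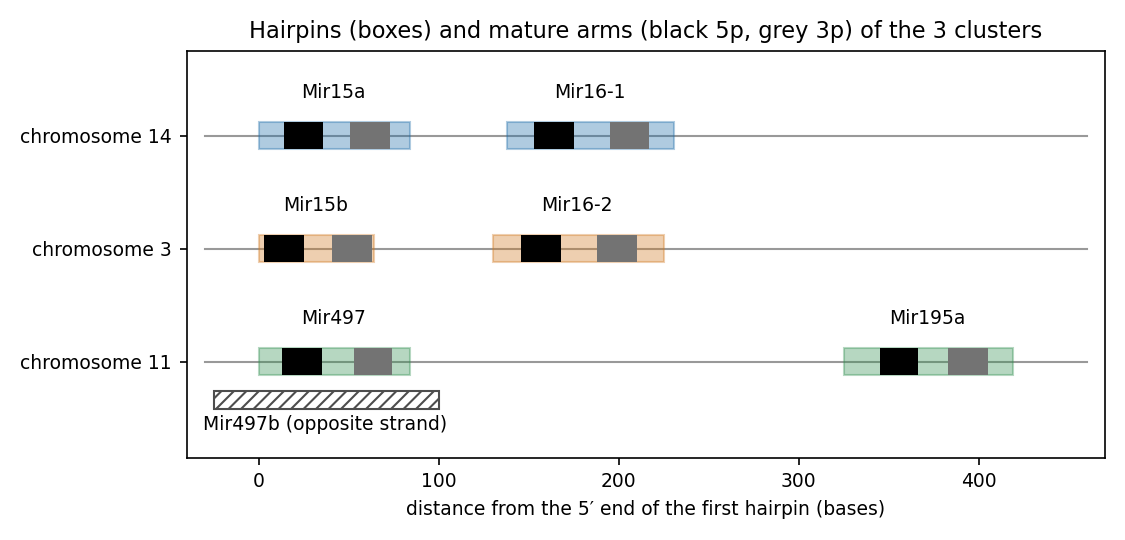
Map of the 3 clusters, drawn to scale in the direction of transcription, with the distance in bases from the 5′ end of the first hairpin on the x axis and 1 cluster per row. Coloured boxes are hairpins, black blocks 5p arms, grey blocks 3p arms, and the hatched box is Mir497b on the opposite strand; the hairpins of Mir15a and Mir16-1 are 54 bases apart, those of Mir15b and Mir16-2 66, and those of Mir497 and Mir195a 241.

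The hairpins of Mir16-1 and Mir16-2 are printed in full because their common stretch limits what can be counted for miR-16. Capitals mark the longest run that both hairpins share.
Mir16-1: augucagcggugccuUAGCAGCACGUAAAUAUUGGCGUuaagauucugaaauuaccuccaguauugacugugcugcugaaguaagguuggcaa
Mir16-2: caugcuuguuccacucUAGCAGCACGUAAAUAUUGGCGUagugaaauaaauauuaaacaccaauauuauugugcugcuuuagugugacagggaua
The run is 23 bases long and holds all 22 bases of miR-16-5p and 1 base beyond it. A read that lies wholly within the run has the same letters at both loci. Reads with several matching loci were assigned to no gene. The 3p arms differ, with 9 bases as their longest common run. Among the 6 members, these are the only hairpins that have 20 or more bases in common with a hairpin elsewhere in the table, which 1076 of the 2202 hairpins (48.9%) do. The next longest run was 16 bases, between Mir195a and Mir195b on chromosome 2. The runs of Mir15a, Mir15b and Mir497 with their nearest match were 13, 12 and 12 bases.

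Levels are in CPM (counts-per-million). The total used for scaling was the sum of own-strand counts over all microRNA genes, 2743657 in replicate 1 and 2211254 in replicate 2. The mature arms are all 21 or 22 bases long, so no length scaling was applied. Counts do not separate the 5p from the 3p arm. The 6 members together had 15369 counts in replicate 1, which is 0.560% of assigned counts (95% Wilson interval 0.551 to 0.569). In replicate 2 they had 10131 counts, or 0.458% (0.449 to 0.467). The family therefore held 0.509% ± 0.0721 (SD, n = 2) of assigned counts, and the libraries did not overlap within their counting intervals. Reads within the run common to Mir16-1 and Mir16-2 are not in these counts. All 6 members reached 10 CPM in both libraries, as 258 of the 2202 genes did.

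By assigned counts, which leave out reads within the run common to Mir16-1 and Mir16-2, Mir195a was the most abundant member. It had 6041 counts in replicate 1 and 3623 in replicate 2, or 2202 and 1638 CPM, a mean of 1920 CPM ± 398 (SD, n = 2). That placed it at rank 56 of 2202 genes, and it held 37.5% ± 2.51 of the family's counts. Its cluster partner Mir497 had 1850 and 1172 counts, or 674 and 530 CPM, with a mean of 602 CPM ± 102 at rank 98. Both genes of this cluster were higher in replicate 1. Together they made up 49.3% ± 2.84 of the family's counts.

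The Mir497 value depends on which strand is counted. Mir497b (ENSMUSG00000070109.2, chromosome 11, 70234692 to 70234816) is annotated on the minus strand and covers all 84 bases of Mir497. In the column of reads on either strand both genes were at 0 in both libraries, because a read under a pair of genes is ambiguous there. On its own strand Mir497 had 1850 and 1172 counts, and the same reads appeared as 1850 and 1172 counts opposite to Mir497b. Mir497b had 0 counts of its own, so that levels of up to 1.09 (replicate 1) or 1.36 CPM (replicate 2) remain possible, taking 3 counts per library as the limit. These limits cover counting error only, since reads with several matching loci were assigned to no gene. The sequences below are the 3p arm of Mir497 and the mature miR-497b, which overlap on opposite strands by 17 bases, with bases 2 to 8 in capitals.
miR-497a-3p: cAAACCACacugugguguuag
miR-497b: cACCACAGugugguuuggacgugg
Neither carries the family seed. Mir497 is the 1 member with such a partner, among 64 genes of the table that have one, and none of the 6 members had a read on the strand opposite to it.

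Mir15a, at the Dleu2 locus, was the second member in the order. It had 3015 and 1996 counts, or 1099 and 903 CPM, a mean of 1001 CPM ± 139 (SD, n = 2) at rank 74. Mir16-1 had 2066 and 1368 counts, or 753 and 619 CPM, a mean of 686 CPM ± 95 at rank 89. Both were higher in replicate 1 and their cluster held 33.1% ± 0.103 of the family's counts.

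Mir15b, in the Smc4 intron, had 1951 and 1638 counts, or 711 and 741 CPM, a mean of 726 CPM ± 20.97 (SD, n = 2) at rank 86. Mir16-2 was the lowest member by assigned counts, with 446 and 334 counts, or 163 and 151 CPM, a mean of 157 CPM ± 8.14 at rank 157. The libraries lay close together for both genes of this cluster, which held 17.5% ± 2.74 of the family's counts.

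**Figure D2:**
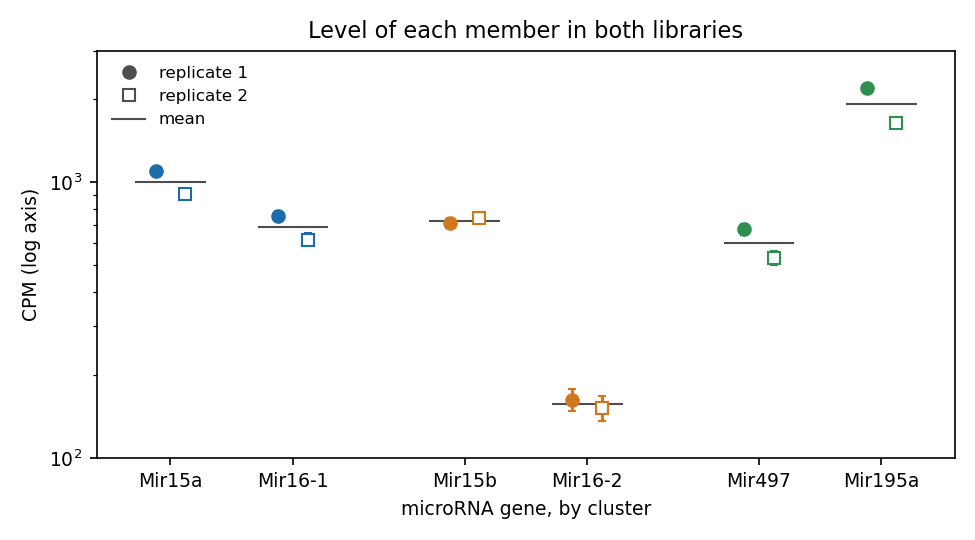
Level of each member in CPM (log axis), with genes on the x axis grouped by cluster; filled circles are replicate 1, open squares replicate 2, error bars 95% Wilson intervals for counting error and short lines the mean. Mir195a lies highest at 2202 and 1638 CPM and Mir16-2 lowest at 163 and 151 CPM, and for Mir15b alone replicate 2 lies above replicate 1.

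The order of levels was Mir195a, Mir15a, Mir15b, Mir16-1, Mir497 and Mir16-2. Mir195a stood above Mir15a by 2.00 times in replicate 1 and 1.82 times in replicate 2, and the libraries of the 2 genes did not overlap. Mir15a likewise stood above Mir15b in every library, and Mir497 above Mir16-2 by 4.15 and 3.51 times. Mir15b and Mir16-1 could not be ordered, since Mir16-1 was higher in replicate 1 and Mir15b in replicate 2. Mir16-1 was above Mir497 within each library, by 1.12 and 1.17 times, but their ranges over both libraries overlapped. From the highest member to the lowest the span was 13.5 times in replicate 1 and 10.8 times in replicate 2.

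The places of Mir16-1 and Mir16-2 in this order cover only reads assigned to 1 locus. Mir16-1 was 4.63 times Mir16-2 in replicate 1 and 4.10 times in replicate 2, a ratio of 4.36 ± 0.379 (SD, n = 2), although both encode the same miR-16-5p. Reads that mapped to several loci numbered 4421485 in replicate 1 and 4266018 in replicate 2, or 288 and 421 times the counts of the whole family. How many of them are miR-16-5p is not given by the tables. The counts of Mir16-1 and Mir16-2 therefore do not show the level of miR-16-5p, nor which locus makes more of it.

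Each cluster is 1 short stretch of DNA whose 2 hairpins can come from 1 primary transcript, so the split of counts within a cluster was read next. Mir15a held 59.3% of its cluster with Mir16-1 in replicate 1, with a 95% Wilson interval of 58.0 to 60.7, and 59.3% in replicate 2 (57.7 to 61.0). Mir15b held 81.4% of its cluster with Mir16-2 in replicate 1 (79.8 to 82.9) and 83.1% in replicate 2 (81.3 to 84.7). Mir497 held 23.4% of its cluster with Mir195a in replicate 1 (22.5 to 24.4) and 24.4% in replicate 2 (23.2 to 25.7). The intervals of the 2 libraries overlapped in all 3 clusters. Mir195a, the downstream gene, was 3.27 and 3.09 times Mir497, while in the other clusters the upstream gene had more assigned counts. In those the downstream gene is a Mir16 locus, whose counts leave out reads within the common run.

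**Figure D3:**
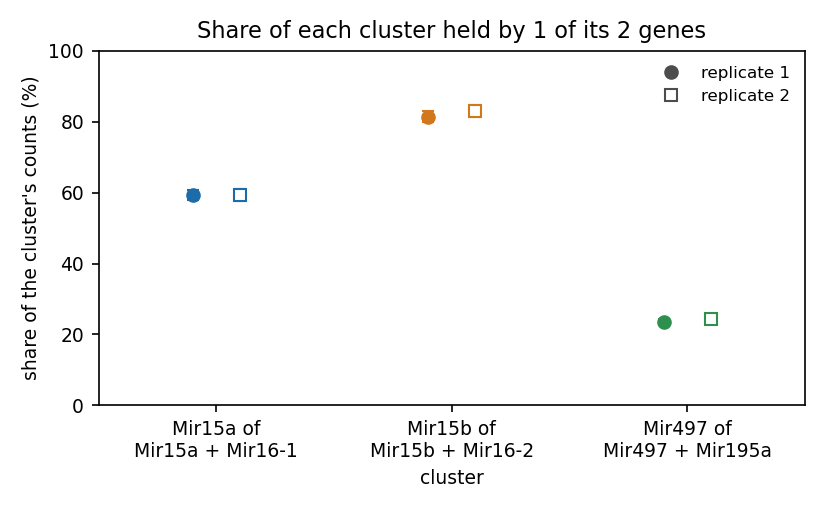
Share of each cluster's counts, in percent, held by the gene named first on the x axis, with filled circles for replicate 1, open squares for replicate 2 and 95% Wilson intervals as error bars. The share was near 59.3% for Mir15a, 81.4% and 83.1% for Mir15b, and 23.4% and 24.4% for Mir497, and the libraries lie close together in each cluster.

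Of the clusters, 2 held a different part of the family's assigned counts in the 2 libraries, judged by counting error only. The parts of all clusters sum to the whole, so they are not independent of each other. Mir497 with Mir195a made up 51.3% of the family in replicate 1, with a 95% Wilson interval of 50.6 to 52.1, and 47.3% in replicate 2 (46.4 to 48.3). Mir15b with Mir16-2 made up 15.6% in replicate 1 (15.03 to 16.2) and 19.5% in replicate 2 (18.7 to 20.2). Neither pair of intervals overlapped. Mir15a with Mir16-1 made up 33.1% in replicate 1 (32.3 to 33.8) and 33.2% in replicate 2 (32.3 to 34.1), which overlapped.

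Replicate 1 was then compared with replicate 2 gene by gene over the 258 genes at 10 CPM or more in both, to see how far the members' levels hold from sample to sample. A log2 ratio is replicate 1 over replicate 2 on log2(CPM + 1), with library sizes scaled by the trimmed mean of M-values (TMM). The test was an exact binomial one, two-sided, on each gene's pair of counts, with Benjamini-Hochberg adjustment over the 258 genes at 0.05. Its p-values set 1 library against the other and measure nothing beyond counting error. It called 131 of the 258 genes, 50.8%, with 82 higher in replicate 1 (31.8%) and 49 lower (19.0%). Scaling by total counts gave 66 higher and 67 lower, and DESeq2's size factors 70 and 65.

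Of the 6 members 4 passed, a count to be read against the background of 50.8%, and each of the 4 was higher in replicate 1. They are both genes of 2 clusters, and the 2 hairpins of a cluster can come from 1 primary transcript. The 4 are therefore not independent of each other. The log2 ratio of Mir195a was 0.47 (adjusted p = 7.39e-55, exact binomial test) and that of Mir497 was 0.39 (adjusted p = 8.85e-13, exact binomial test). Mir15a and Mir16-1, the 2 genes of the Dleu2 cluster, were both at 0.33 (adjusted p = 8.72e-15 and 1.88e-10, exact binomial test). The genes of the Smc4 cluster did not pass. Mir15b stood at −0.01 (exact binomial test, adjusted p = 0.862) and Mir16-2 at 0.15 (exact binomial test, adjusted p = 0.241), which does not show that their levels were equal. The median over the members was 0.33, beside 0.04 over all genes tested.

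**Figure D4:**
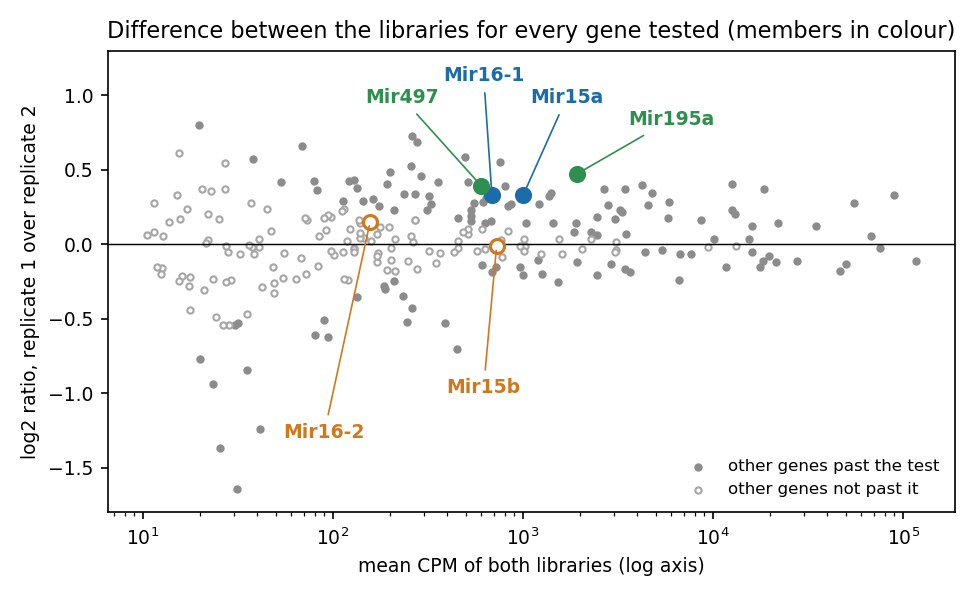
Log2 ratio of replicate 1 over replicate 2 against mean CPM (log axis) for the 258 genes tested; filled points passed the exact binomial test, open points did not, and the 6 members are in the colours of their clusters. Mir195a (0.47), Mir497 (0.39), Mir15a and Mir16-1 (both 0.33) lie above 0, while Mir16-2 (0.15) and Mir15b (−0.01) did not pass.

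These differences were within 2-fold and of a size found for other genes. The median absolute log2 ratio of the 258 genes was 0.178, and 29 of them (11.2%) differed by at least as much as Mir195a in either direction. edgeR's exact test, which adds a spread common to all genes estimated over both libraries, called 3 of the 258 genes (1.16%) and 0 of the 6 members, with 15 genes and 0 members at an unadjusted p under 0.05. Its adjusted p for the members ran from 0.950 to 0.995. With 2 libraries this estimate of spread comes from the same differences that are tested.

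Markers of other cells moved between the libraries as well. The endothelial Mir126a, the 1 gene of its list, had 98087 and 80432 CPM, and its log2 ratio was 0.33, which passed the exact binomial test. The erythroid list, Mir451a and Mir144, went the other way, at 384 and 571 CPM, a log2 ratio of −0.52 for the sum. Of the 11 genes on the neuron list 6 had counts, with the sum at 944 and 1099 CPM. Mir124a-1, Mir124a-2, Mir124a-3, Mir9-1 and Mir9-2 were at 0 in both libraries. Reads with several matching loci were assigned to no gene, so these 0 values do not show that the microRNAs were absent. All 5 neuron genes tested passed, 1 higher and 4 lower in replicate 1, with a median log2 ratio of −0.77. Mir137, at 14.2 and 47.9 CPM, had a log2 ratio of −1.64, and Mir138-1, at 23.7 and 59.2 CPM, one of −1.24, while Mir128-1 and Mir128-2 made up most of the sum. The leukocyte list of 5 genes was at 1546 and 1549 CPM, the smooth muscle list of 2 genes at 36704 and 34920 CPM and the liver gene Mir122 at 108 and 132 CPM. The skeletal muscle list summed to 69535 and 69214 CPM, a log2 ratio of 0.05 that is nearly that of Mir206 alone. Of its 7 genes tested 4 passed, 2 in each direction, with Mir499 at 338 and 217 CPM (log2 ratio 0.69) and Mir1a-2 at 198 and 294 CPM (log2 ratio −0.52). All these marker values cover only reads assigned to 1 locus, and the part of these cells in the members' differences was not tested.

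Beyond the family, 6 loci of the table had a mature sequence in RefSeq with the bases 2 to 7 of miR-15a-5p, among 1018 table genes found there by symbol. Those with counts were Mir322 and Mir503, neighbours on the X chromosome that are known to help myoblasts leave the cell cycle, in part through Cdc25a. Their sequences are shown to place the family among its seed relatives, with bases 2 to 8 in capitals.
miR-322-5p: cAGCAGCAauucauguuuugga
miR-503-5p: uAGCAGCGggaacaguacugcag
miR-322-5p has the family's bases 2 to 8, while miR-503-5p has a different base 8. Mir322 was at 12901 and 13449 CPM, with a mean of 13175 CPM ± 388 (SD, n = 2) at rank 19. By assigned counts that is 2.30 and 2.94 times all 6 family members together. The family's counts leave out reads within the run common to Mir16-1 and Mir16-2. Mir503 had 297 and 243 CPM, a mean of 270 CPM ± 38.3 at rank 126, between Mir497 and Mir16-2.

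The bases 2 to 7 of miR-15a-5p could be looked up only for the 1018 table genes found in RefSeq by symbol. Of the assigned counts of all loci found with these bases, Mir503 included, the family held 29.8% in replicate 1. The 95% Wilson interval was 29.4 to 30.2. In replicate 2 the family held 25.1% (24.7 to 25.5), and Mir322 held most of the rest in both. Reads within the run common to Mir16-1 and Mir16-2 are missing from the family's part. Mir322 differed little between the libraries, with −0.01 as its log2 ratio (adjusted p = 0.338, exact binomial test). With library sizes from total counts its log2 ratio was −0.06 and it passed the test (exact binomial test, adjusted p = 4.66e-07), and over all settings its adjusted p ran from 4.66e-07 to 0.995. The log2 ratio of Mir503 was 0.34 (adjusted p = 8.35e-05, exact binomial test), close to those of Mir15a and Mir16-1. Mir195b, Mir6342, Mir6353 and Mir6419 share the family's bases 2 to 8 and were at 0 counts in each library, with the same limits of 1.09 and 1.36 CPM as Mir497b. Because reads with several matching loci went to no gene, these 0 values do not show that the microRNAs were absent.

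**Figure D5:**
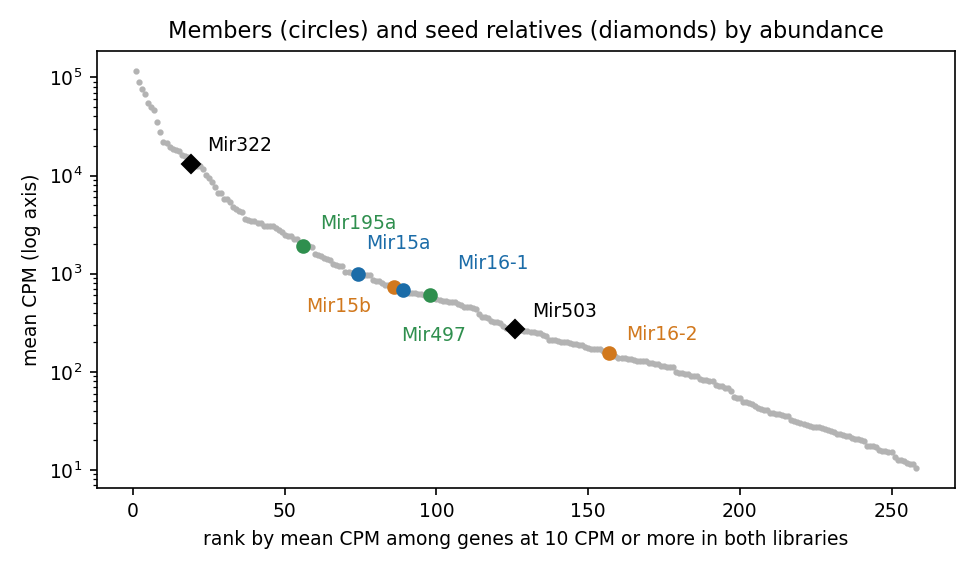
Mean CPM (log axis) against rank for the 258 genes tested, with family members as coloured circles and seed relatives as black diamonds. Mir322 at rank 19 lies above every member, Mir195a leads the family at rank 56, and Mir16-2 is the last member at rank 157.

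Among genes outside the family, those nearest in level over the 2 libraries were taken by the distance between log2(CPM + 1) values. For Mir195a they were Mir369, Mir154 and Mir17, at distances of 0.233, 0.279 and 0.387. For Mir15b they were Mir128-1 (0.102), Mir20a (0.102) and Mir181b-2 (0.140), and for Mir16-2 they were Mir708 (0.0904), Mir125b-2 (0.132) and Mir26a-1 (0.159). Likeness over 2 libraries of 1 tissue is little more than a like level.

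A list of 22 other microRNAs known for acting on the cell cycle was read beside the family. Of these, 20 had counts and 17 were tested. The test called 8, with 2 higher and 6 lower in replicate 1, where the background is 50.8% of the 258 genes, and the list's median log2 ratio was −0.11. By assigned reads, the most abundant was Mir26b, at 17291 and 19304 CPM. It was followed by Mir17 of the growth-promoting miR-17-92 cluster, at 1985 and 2098 CPM, and Mir93 of its paralog cluster, at 1365 and 1681 CPM. Listed microRNAs with copies at several loci can be undercounted, so this is not an order of total microRNA. Mir26b and Mir93 were lower in replicate 1 (exact binomial test, adjusted p = 2.50e-30 and 2.01e-13), and Mir17 did not pass (exact binomial test, adjusted p = 0.347). Mir195a, at 1920 CPM ± 398 (SD, n = 2), lay next to Mir17 in the order of levels, at 2042 CPM ± 80.2, a difference within the spread of Mir195a. For scale, Mir378a, the most abundant gene of the table, was at 117291 CPM ± 8973.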

How the data were processed

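The deposited values are whole-number read counts per microRNA gene, 1 table per library, not normalized, with 3 columns by strand: either, own or opposite to the gene. Per the notes deposited with the tables they were made on mm10 with annotation M21. Aligner, counter and trimming are not given in the sources used here. The 4 lines that name no gene were left out of library sizes and tests. Of 10056843 reads in replicate 1 and 8189059 in replicate 2, they held 25.9% and 18.2% unmapped, 44.0% and 52.1% at several loci, and 2.90% and 2.68% outside the genes. The own-strand column was used. All 2202 identifiers were found in GENCODE vM21. Sequences are from RefSeq (GRCm38.p6), and the hairpins searched for common runs from GENCODE.

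Library sizes were scaled by TMM over all genes (edgeR 4.0.16, R 4.3.3). The exact binomial test was run because setting 1 library against 1 leaves no residual degrees of freedom for edgeR's quasi-likelihood test. It was tested on simulated counts that held counting error only, which does not show how the test behaves with spread between samples. Alternatives were total counts, DESeq2 1.42.0 size factors, other filters, strand, denominators and edgeR's exact test. Wilson intervals (scipy 1.17.1) and limits from 3 counts cover counting error only, since PCR reads are not independent molecules. The members and lists were chosen with earlier results of these data known. Named genes were the members, the gene opposite Mir497 and every locus found in RefSeq with the bases 2 to 7 of miR-15a-5p. Also named were the 3 genes nearest in level to Mir15b, Mir16-2 and Mir195a. The 3 most abundant of the other cell cycle microRNAs and the most abundant gene were added.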

Additional observations from a re-analysis of the deposited data

How the results depend on the processing

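The family's share of 0.509% was 0.585% with either strand counted, 0.179% of all mapped reads and 0.425% without Mir16-1 and Mir16-2. From 1 library alone it was 0.458% to 0.560%. With either strand counted, the share of seed relatives was 1.75%, against 1.34%. The counts of Mir322 and Mir503 were the same there, but the total was smaller, 2096446 against 2743657 in replicate 1. In replicate 2 the total was 1702939 against 2211254. The family's share rose over the same smaller total, although Mir497 held 0% of its cluster, because its reads are then ambiguous. edgeR's exact test called 3 genes against 131, and 0 members against 4. The calls of Mir195a, Mir15a, Mir16-1 and Mir497 were lost there, and that of Mir497 also with either strand counted, where it has no count and 3 members passed. Under the other settings that test each, their adjusted p reached at most 5.93e-08, and Mir15b and Mir16-2 passed under none. TMM over the 258 genes tested, chosen after seeing the data, called 134 genes. No paired analysis was possible because there is 1 group. Leaving out a library gives no test between libraries. Depth limits the precision of Mir16-2 most, at 334 to 446 counts.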
